A study of Mus musculus with 52 samples.

Results

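The liver of mice 48 hours after partial hepatectomy was compared with untreated liver. The comparison used the 4 arrays titled for 48 hours after the operation and the 5 arrays titled as controls, 9 of the 52 arrays of the series, chosen by title alone. Both groups were liver of C57Bl6/N mice labelled male and 8 to 12 weeks old, kept on standard diet. No transgene, mutant allele or drug is named for either group, and the 48-hour group differed in having lost most of its liver in the operation. No sham-operated liver was analysed here, so the loss of tissue, the surgery itself and the time of day cannot be told apart. Whether each array stands for its own animal is not given in the labels, so every p-value reflects only how these arrays vary, which may be technical. Total RNA was hybridized to Affymetrix mouse genome arrays, on which sets of short probes read each gene.

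Adult hepatocytes rarely divide, but after partial hepatectomy the cells of the remnant leave rest, copy their DNA and pass through mitosis until the lost mass is restored. Entry into the cycle runs from cyclin D and the E2F transcription factors to the MCM helicase and the DNA polymerases, and then to cyclins A and B with Cdk1, which drive mitosis. E2F sites control many genes of DNA replication, whereas many mitotic genes are held down in resting cells through a promoter element called CHR, usually found with CCAAT boxes. While they grow, hepatocytes also keep making plasma proteins, and injury raises acute phase proteins and metallothioneins.

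Values are log2 expression, so a change of 1 is a 2-fold difference, and changes are given ± SE. Of the 18193 genes tested with limma, 5609 passed at a Benjamini-Hochberg adjusted p under 0.05, which is 30.8% of all genes. Of these, 3170 rose (17.4% of all genes) and 2439 fell (13.4%). Changes of at least 2-fold were mostly upward, with 920 rises and 124 falls, and the median change of all genes was -0.04. Among the genes called, 56.5% rose, and a further quantile normalization of the arrays turned this to 45.5%, with 2183 rises and 2610 falls. In 890 of the falls the control mean itself lay under the median of all probe sets, where signal and background are hard to separate. The brightest probe set stood for each gene, and 217 of the genes called had probe sets called in both directions. When probe sets were averaged per gene, 137 of the 142 genes called that are named here kept their call, and the change of 33 was smaller by over 1.5 times. Most of these genes were named for their large changes.

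The groups also differed in technical measures. The hybridization controls, spiked into each hybridization at known amounts, had a mean of 10.38 ± 0.08 (SD, n = 4) at 48 hours and 10.85 ± 0.29 (SD, n = 5) in the controls. The Gapdh 3' minus 5' difference, larger in degraded RNA, was 1.04 ± 0.24 (SD, n = 4) and 1.61 ± 0.57 (SD, n = 5), with control replicate 1 at 2.56. Their part in the results was not tested beyond fits with each as a covariate, in which 2150 genes passed with the hybridization controls (1434 rose, 716 fell) and 5173 with the Gapdh difference. Over the 2000 most variable genes, 48-hour replicate 4 correlated at 0.62 with the rest of its group and at 0.64 with the mean of the 3-day group, while the other 48-hour arrays correlated at 0.78 to 0.87 with their own. Hepatocyte identity was plain in all 9 arrays. Alb, the gene of albumin, read 14.07, 14.06, 14.00 and 13.97 in the 48-hour replicates 1 to 4 and 13.93, 13.98, 13.96, 14.00 and 13.99 in the control replicates 1 to 5, a difference of 0.06 ± 0.07 that did not pass. Of 8 hepatocyte markers, 1 rose and 7 did not pass. Below, values of single arrays follow the order of the replicate numbers.

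Genes of cell division made up most of the 15 largest rises. Mki67, whose protein coats the chromosomes of dividing cells, read 9.40, 9.91, 9.81 and 7.57 at 48 hours and 3.42, 3.61, 3.37, 3.15 and 3.18 in the controls. The lowest 48-hour array, replicate 4, still lay 3.96 log2 units above the highest control. The change was 5.83 ± 0.76 (adjusted p = 3.13e-07), at least 35-fold when the dim control mean is replaced by the median of all probe sets, which is the reference for every "at least" below. Of 14 further genes among the 15 with the largest rises whose groups did not overlap, 9 belonged to DNA replication or mitosis, and the others included Lcn2, Saa2, Mt1 and Mt2, described with the secreted and stress proteins. The list also held D17H6S56E-5 (5.33 ± 0.68), at 8.29 to 10.55 against 4.45 to 4.72. Because whole liver was measured, more cells of a kind and more RNA per cell cannot be told apart.

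**Figure D1:**
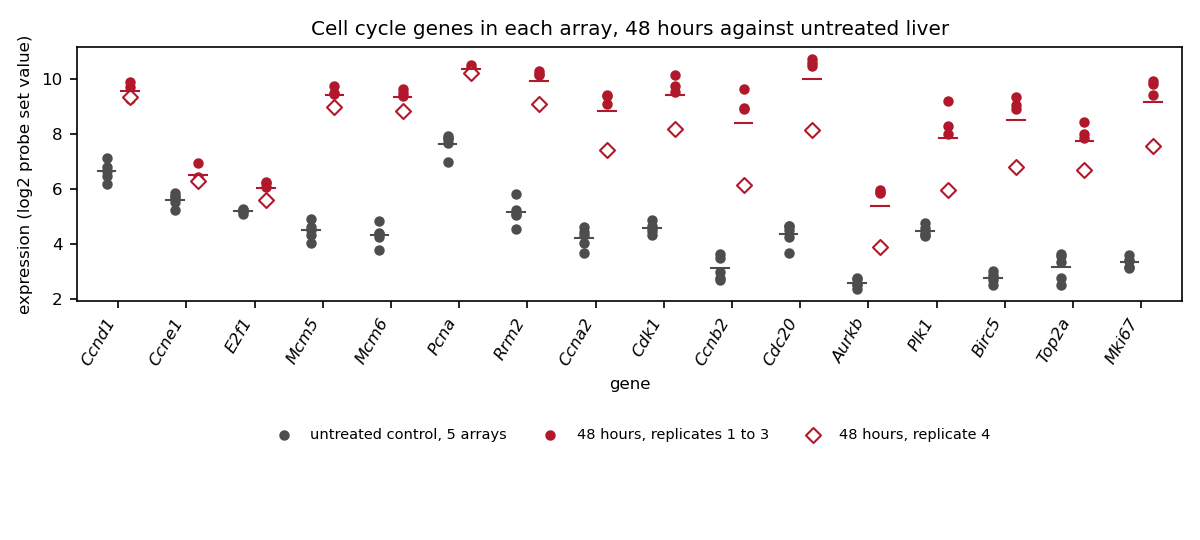
Log2 probe set values (y axis) of 16 cell cycle genes (x axis) in the 5 control arrays (grey) and the 4 arrays at 48 hours (red, replicate 4 as an open diamond), with horizontal lines at the group means. The groups do not overlap for any of the 16 genes, and replicate 4 is the lowest 48-hour array for all mitotic genes shown, such as Ccnb2 at 6.15 beside 8.91 to 9.62.

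Regulators of the step from rest into DNA synthesis mostly rose, Rbl1, Ccnd1 and Ccne2 by more than 2 log2 units. Of 24 genes of G1 and S phase control, 17 rose, 1 fell and 6 did not pass, against 17.4% and 13.4% of all genes, with a median change of 0.81. Ccnd1, the cyclin that opens the cycle to growth signals, read 9.26, 9.70, 9.90 and 9.33 at 48 hours and 6.17, 6.65, 6.79, 6.49 and 7.12 in the controls. All 48-hour arrays lay above all controls, and the change was 2.90 ± 0.59 (adjusted p = 0.000249), 7.48-fold higher. Ccne1 and Ccne2, the cyclins that start DNA synthesis with Cdk2, changed by 0.89 ± 0.22 and 2.55 ± 0.52. Ccne2 was uneven at 48 hours, with 5.93, 5.67, 4.83 and 3.91 against 2.32, 2.56, 2.17, 2.60 and 3.03. Rbl1, the pocket protein p107 and itself an E2F target, changed by 3.38 ± 0.50 and Skp2, which marks the inhibitor p27 for destruction, by 2.23 ± 0.40. With its probe sets averaged Rbl1 changed by 1.05.

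Of the E2F family, the activators E2f1 and E2f2 changed by 0.85 ± 0.21 and 1.06 ± 0.25, and E2f8, an atypical member that represses E2F targets late in S phase, changed by 2.17 ± 0.54. E2f1 read 6.21, 6.07, 6.27 and 5.61 at 48 hours and 5.23, 5.19, 5.09, 5.25 and 5.20 in the controls, with no overlap. E2f8 read 7.58, 7.55, 7.68 and 6.52 and 4.44, 5.17, 4.35, 6.20 and 5.64, and its lowest 48-hour array stood only 0.32 above the highest control. Its call ended with the hybridization controls as a covariate (1.21, adjusted p = 0.135), and the mean of its probe sets gave 1.09. Mybl2, the B-Myb of the complex that switches on mitotic genes, was very dim at 2.40 to 2.56 and 2.61 to 2.93 and fell by 0.27 ± 0.11 (adjusted p = 0.0495), a call that ended under 16 of 20 alternatives. Foxm1, its partner in mitotic gene control, stood at -0.14 ± 0.15 and did not pass on its brightest probe set, while 1 of its 4 sets rose by 1.30. Myc read 6.08, 6.93, 6.38 and 6.48 at 48 hours and 7.02, 5.05, 4.31, 6.20 and 6.67 in the controls, overlapped and did not pass (0.62 ± 0.50, adjusted p = 0.357). With the hybridization controls as a covariate 11 of the 24 genes rose.

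Loading and firing of replication origins was strongly represented. Of 24 licensing and helicase genes, 19 rose and 5 did not pass, with a median change of 2.13. In 18 of the 24 all 48-hour arrays lay above all controls, and in 1 below. Such counts without overlap, here and below, stand without the share over all genes and describe the arrays only. Mcm6 and Mcm5, subunits of the ring-shaped helicase that opens DNA, rose most. Mcm6 read 9.39, 9.49, 9.63 and 8.83 at 48 hours and 3.78, 4.24, 4.36, 4.83 and 4.42 in the controls, a change of 5.01 ± 0.74 (adjusted p = 2.04e-06), 32.2-fold higher. Mcm5 read 9.48, 9.46, 9.74 and 8.98 and 4.34, 4.63, 4.52, 4.92 and 4.05, a change of 4.93 ± 0.75. The helicase subunits Mcm3 and Mcm4 changed by 3.58 ± 0.57 and 3.02 ± 0.56. Cdt1 and Cdc6, which load the helicase on DNA, changed by 3.61 ± 0.52 and 2.87 ± 0.60, and Dbf4, the activator of the kinase that fires origins, by 3.61 ± 0.48. Timeless, which steadies the replication fork, changed by 2.50 ± 0.39. With their probe sets averaged the changes of Mcm5, Mcm3, Cdt1 and Dbf4 were 3.18, 2.05, 2.17 and 1.88. The 4 arrays at 48 hours were close to each other here, with list means 1.96, 2.14, 2.22 and 1.65 above the control mean for replicates 1 to 4.

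The machinery that makes DNA and its building blocks followed the same pattern. Of 30 genes of DNA synthesis and nucleotide supply, 26 rose and 4 did not pass, with a median change of 1.72. Rrm2, the subunit that limits the making of deoxynucleotides, read 10.27, 10.12, 10.18 and 9.09 at 48 hours and 4.53, 5.08, 5.07, 5.24 and 5.81 in the controls. It changed by 4.77 ± 0.81 (adjusted p = 2.01e-05), 27.3-fold. Pcna, the sliding clamp of the polymerases, read 10.24, 10.50, 10.39 and 10.23 and 6.98, 7.81, 7.67, 7.85 and 7.94 and changed by 2.69 ± 0.36. Pcna had the highest control level of the replication genes named here, and its groups were apart by 2.29 log2 units. Uhrf1, which copies DNA methylation to the new strand, changed by 4.31 ± 0.71, the clamp loader Rfc4 by 3.14 ± 0.47, the DNA ligase Lig1 by 3.14 ± 0.46 and the primase Prim1 by 3.05 ± 0.48. The single-strand binding protein Rpa2 changed by 2.77 ± 0.36 and the polymerase subunit Pole by 2.44 ± 0.43. Tyms, which makes thymidylate, was dim on the set used, at 2.26 to 2.47 against 2.14 to 2.39, and did not pass (0.09 ± 0.12), while 2 of its 4 sets rose, by 0.48 at most.

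Genes that guard and repair replicating DNA rose alongside. Of 23 genes of homologous recombination and Fanconi repair, 14 rose, 1 fell and 8 did not pass. Brca1, which brings broken ends to recombination, read 6.31, 6.61, 6.73 and 5.88 at 48 hours and 2.64, 3.16, 3.13, 2.83 and 3.31 in the controls, and changed by 3.37 ± 0.39 (adjusted p = 6.37e-08), or by 1.15 with its probe sets averaged. Chek1, the checkpoint kinase of stalled forks, changed by 3.22 ± 0.53, Fancb by 2.39 ± 0.38 and the recombination motors Rad54b and Rad54l by 1.81 ± 0.25 and 1.45 ± 0.28. Fancc, another part of the Fanconi complex, fell by 0.97 ± 0.26. The mean of their probe sets gave 1.38 for Chek1, 1.37 for Fancb, 0.71 for Rad54l and -0.41 for Fancc. With the hybridization controls as a covariate 9 of the 23 rose and the call of Fancc ended (-0.57, adjusted p = 0.159).

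The kinetochore and spindle genes had the largest median change of any list. Of 26 genes of mitotic entry and the spindle checkpoint, 22 rose and 4 did not pass, with a median change of 2.59. Of 45 genes of the kinetochore, condensin, spindle and cytokinesis, 43 rose and 2 did not pass, with a median of 3.34. In 12 and 30 of these genes the control mean lay under the median of all probe sets, so a fold for these genes is a lower bound as defined above. Replicate 4 was the lowest 48-hour array for 24 of the 26 and 43 of the 45 genes. The list means of replicates 1 to 4 were 2.99, 3.12, 3.24 and 1.67 above control for mitotic entry and 3.27, 3.29, 3.43 and 1.70 for the kinetochore list.

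The cyclins and kinases that start mitosis came first. Cdk1, the kinase of mitotic entry, read 9.53, 9.75, 10.13 and 8.18 at 48 hours and 4.86, 4.57, 4.33, 4.46 and 4.64 in the controls. It changed by 4.83 ± 0.65 (adjusted p = 5.32e-07), 28.4-fold, and even replicate 4 was 3.32 above the highest control. Its partner Ccnb2 read 8.91, 9.62, 8.96 and 6.15 and 3.48, 2.76, 3.00, 2.69 and 3.63, a change of 5.30 ± 0.72 and at least 20.6-fold. Ccna2, the cyclin of S phase and early mitosis, read 9.39, 9.41, 9.08 and 7.41 and 4.33, 3.67, 4.61, 4.02 and 4.43 and changed by 4.61 ± 0.65. Ccnb2 in replicate 4 was over 2.5 log2 units below the other 48-hour arrays, a wider gap than for Cdk1 or Ccna2. The kinases Aurkb and Plk1, of chromosome attachment and spindle assembly, changed by 2.82 ± 0.46 and 3.40 ± 0.48, with Plk1 at 8.00, 8.30, 9.20 and 5.98 against 4.56, 4.76, 4.27, 4.39 and 4.34. Aurka, the centrosome kinase, changed by 3.87 ± 0.55 and Nek2, which separates centrosomes, by 4.33 ± 0.53, and Pbk by 4.56 ± 0.62. With their probe sets averaged Aurka changed by 1.88 and Nek2 by 1.91.

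Genes of the exit from mitosis rose too. Cdc20, the activator of the complex that destroys cyclin B, read 10.59, 10.48, 10.74 and 8.12 at 48 hours and 4.52, 3.67, 4.65, 4.24 and 4.66 in the controls, a change of 5.64 ± 0.82 (adjusted p = 1.75e-06). Ube2c, the ubiquitin carrier of the same complex, read 8.96, 9.08, 9.44 and 6.66 and 3.07, 2.45, 3.24, 3.63 and 3.65 and changed by 5.33 ± 0.71, at least 22.5-fold. In both genes replicate 4 was the lowest of the 48-hour arrays and above all controls. Birc5, the survivin subunit of the chromosomal passenger complex, changed by 5.74 ± 0.72, and Cdca8, another subunit, by 4.22 ± 0.53. Top2a, which untangles sister chromatids, read 7.84, 8.00, 8.45 and 6.68 and 2.50, 3.65, 3.56, 2.78 and 3.35 and changed by 4.57 ± 0.65, or by 1.84 with its probe sets averaged. Spc25 of the outer kinetochore changed by 4.54 ± 0.63, Smc2 of condensin by 4.06 ± 0.56, Nusap1 of the spindle by 4.39 ± 0.61 and Ect2, which positions the cleavage furrow, by 4.31 ± 0.58. Esco2 and Cdca5, which join sister chromatids, were also among the 15 largest rises, at 5.20 ± 0.78 and 5.11 ± 0.74. Esco2 was uneven at 48 hours, with 8.01, 7.45, 7.14 and 4.98 against 1.78, 1.58, 1.68, 1.79 and 1.63. Spc25, Smc2, Nusap1 and Esco2 changed by 2.37, 2.62, 2.22 and 3.34 with their probe sets averaged.

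Promoters of these genes hold letters known from cell cycle control, and 7 are shown because their genes carry the replication and mitosis results. Each line gives the 150 bases before the RefSeq start site (build GRCm38.p6), 5′ to 3′ on the gene's strand. In the first 5, of mitotic genes, capitals mark the CHR letters TTTGAA and the CCAAT box, on either strand (TTCAAA and ATTGG in reverse).
Cdk1 (chr10:69352913-69353062, minus strand): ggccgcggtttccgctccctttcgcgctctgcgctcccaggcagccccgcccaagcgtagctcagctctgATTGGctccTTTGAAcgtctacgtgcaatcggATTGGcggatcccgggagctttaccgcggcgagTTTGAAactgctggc
Mki67 (chr7:135716380-135716529, minus strand): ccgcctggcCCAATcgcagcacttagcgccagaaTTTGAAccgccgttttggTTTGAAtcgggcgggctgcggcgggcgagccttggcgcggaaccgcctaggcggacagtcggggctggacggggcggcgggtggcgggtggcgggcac
Cdc20 (chr4:118437344-118437493, minus strand): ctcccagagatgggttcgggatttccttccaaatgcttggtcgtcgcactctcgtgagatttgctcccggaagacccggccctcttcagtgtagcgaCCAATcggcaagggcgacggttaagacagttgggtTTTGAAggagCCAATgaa
Ube2c (chr2:164769779-164769928, plus strand): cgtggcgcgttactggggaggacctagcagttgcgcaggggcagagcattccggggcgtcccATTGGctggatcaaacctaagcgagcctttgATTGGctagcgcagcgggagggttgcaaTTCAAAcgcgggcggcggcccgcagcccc
Top2a (chr11:99024190-99024339, minus strand): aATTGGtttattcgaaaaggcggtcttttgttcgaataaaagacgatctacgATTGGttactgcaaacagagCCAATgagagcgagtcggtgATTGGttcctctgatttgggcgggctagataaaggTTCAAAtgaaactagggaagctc
Mcm5 (chr8:75109359-75109508, plus strand): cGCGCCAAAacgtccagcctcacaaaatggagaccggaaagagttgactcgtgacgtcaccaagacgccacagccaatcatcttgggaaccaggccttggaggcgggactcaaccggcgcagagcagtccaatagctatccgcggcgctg
Mcm6 (chr1:128359706-128359855, minus strand): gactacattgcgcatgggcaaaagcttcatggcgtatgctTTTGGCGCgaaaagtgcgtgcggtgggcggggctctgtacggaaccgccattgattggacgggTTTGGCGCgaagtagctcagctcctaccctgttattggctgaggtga
In the last 2, Mcm5 and Mcm6 of the helicase, capitals mark the E2F letters TTTGGCGC (GCGCCAAA in reverse). Both of these promoters also hold CCAAT letters, left in lower case here. The Cdk1 promoter holds TTTGAA at 2 places and Top2a holds 4 CCAAT boxes. Over the 300 bases from 250 before to 50 after the start, TTTGAA stood in 33 of 45 promoters of the kinetochore list (73.3%, 39 of 45 genes matched) and in 13 of 21 of the mitotic entry list (61.9%, 20 of 26 matched). It stood in 17.9% of all 32851 promoters of the table. TTTGAA and CCAAT together stood in 53.3% and 61.9% of these promoters, against 6.95% of all, and in 3 of 20 promoters of licensing genes. CCAAT alone was not particular to mitosis, at 65% in the licensing list beside 71.1% (kinetochore), 85.7% (mitotic entry) and 37.4% of all. In the G1 list TTTGAA with CCAAT stood in 20.8% of promoters and the E2F letters also in 20.8%. In the DNA synthesis list these shares were 5.88% and 20.6%. The E2F letters TTTGGCGC or TTTCCCGC stood in 7 of 20 licensing promoters and in 8.89% of those of the kinetochore list, against 1.56% of all. No promoter of the mitotic entry list held these 8-letter words. A match is a description of letters and not a binding site, and binding was not measured.

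**Figure D2:**
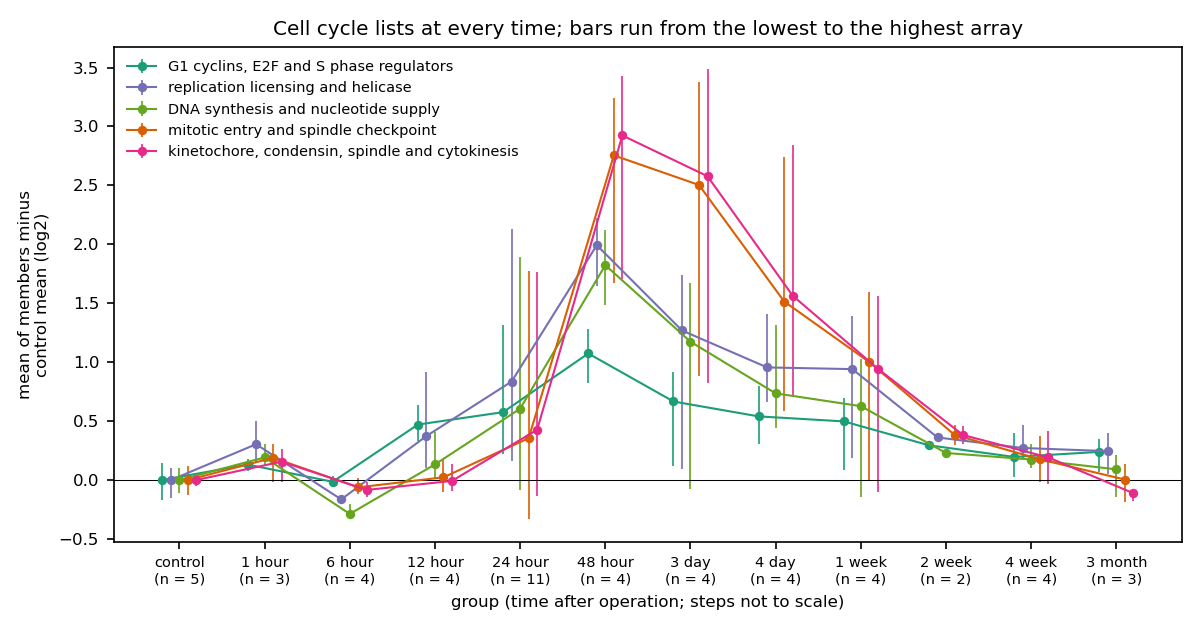
Mean change from the control mean (y axis, log2) of the members of 5 cell cycle lists in the 12 groups (x axis, not to scale), with points at group means and bars from the lowest to the highest array. All 5 lists have their highest group mean at 48 hours, at 2.92 for the kinetochore list and 1.07 for the G1 list, and the 48-hour bars are short for replication and long for mitosis.

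Some brakes of the cycle rose, though their list stood near the shares of all genes. Of 23 CDK inhibitors and p53 targets, 6 rose (26.1%), 3 fell (13%) and 14 did not pass, against 17.4% and 13.4% of all genes. Cdkn1a, the inhibitor p21, read 7.99, 7.78, 8.24 and 7.84 at 48 hours and 5.66, 5.20, 4.81, 5.34 and 4.54 in the controls, a change of 2.85 ± 0.58 (adjusted p = 0.000241). Cdkn2c and Cdkn2d, inhibitors of the kinases of cyclin D, changed by 2.39 ± 0.38 and 2.05 ± 0.33. The p53 targets split. Mdm2, which destroys p53, and Zmat3 changed by 0.85 ± 0.17 and 1.05 ± 0.19, whereas Gadd45a, a growth arrest gene, fell by 1.54 ± 0.50 and Bbc3, the death gene Puma, by 0.87 ± 0.16. For each of these 7 genes the call held with each array left out and under every other alternative.

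Part of the cytoskeleton genes also rose. Of 30 tubulin, actin and keratin genes, 14 rose and 16 did not pass, with a median of 0.61. Stmn1, which loosens microtubules, read 11.25, 11.57, 11.44 and 9.52 at 48 hours and 6.26, 6.51, 6.31, 6.50 and 6.37 in the controls and changed by 4.55 ± 0.66. The tubulins Tubb6 and Tubb5 changed by 3.45 ± 0.45 and 1.70 ± 0.31, and replicate 4 was again lowest, with Tubb6 at 8.81, 9.11, 9.21 and 7.12. Tubb6 changed by 1.70 with its probe sets averaged. The cytoplasmic actin Actg1 changed by 1.61 ± 0.30, with 11.48, 11.75, 11.40 and 11.47 against 10.10, 10.46, 9.93, 9.94 and 9.16, and showed no such gap. The keratins of hepatocytes and the other actin of the list did not pass.

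Ribosome and proteasome genes rose in smaller steps. Of 27 ribosome biogenesis genes, 17 rose, 1 fell and 9 did not pass, with a median of 0.51. Nop58, a core protein of small nucleolar particles, read 8.07, 8.26, 8.53 and 8.32 at 48 hours and 6.28, 7.19, 6.66, 7.06 and 5.90 in the controls, a change of 1.68 ± 0.34 (adjusted p = 0.000231). Rrp12 and Nolc1, of ribosome assembly and the nucleolus, changed by 1.53 ± 0.30 and 1.20 ± 0.25. Of 31 proteasome subunits, 18 rose, 2 fell and 11 did not pass, with a median of 0.34. Psmd13 and Psmd8 of the regulatory particle changed by 1.38 ± 0.21 and 1.02 ± 0.20, and Psmd13 by 0.34 with its probe sets averaged. Psmd8 read 8.93, 9.21, 9.19 and 9.41 and 7.08, 8.70, 8.24, 8.57 and 8.23, with control replicate 1 lowest by far. The falls were Psmb3 (-0.40 ± 0.14), whose call ended under 8 alternatives, among them without 48-hour replicate 1 or 2 or control replicate 1, and Psmc2 (-0.34 ± 0.08), of which another set rose. These counts moved with the processing. With the hybridization covariate 7 ribosome biogenesis and 6 proteasome genes rose, and after quantile normalization 9 and 8. In ribosome biogenesis 10 genes rose when 48-hour replicate 4 was left out, and 11 when 48-hour replicate 3 or control replicate 5 was.

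**Figure D3:**
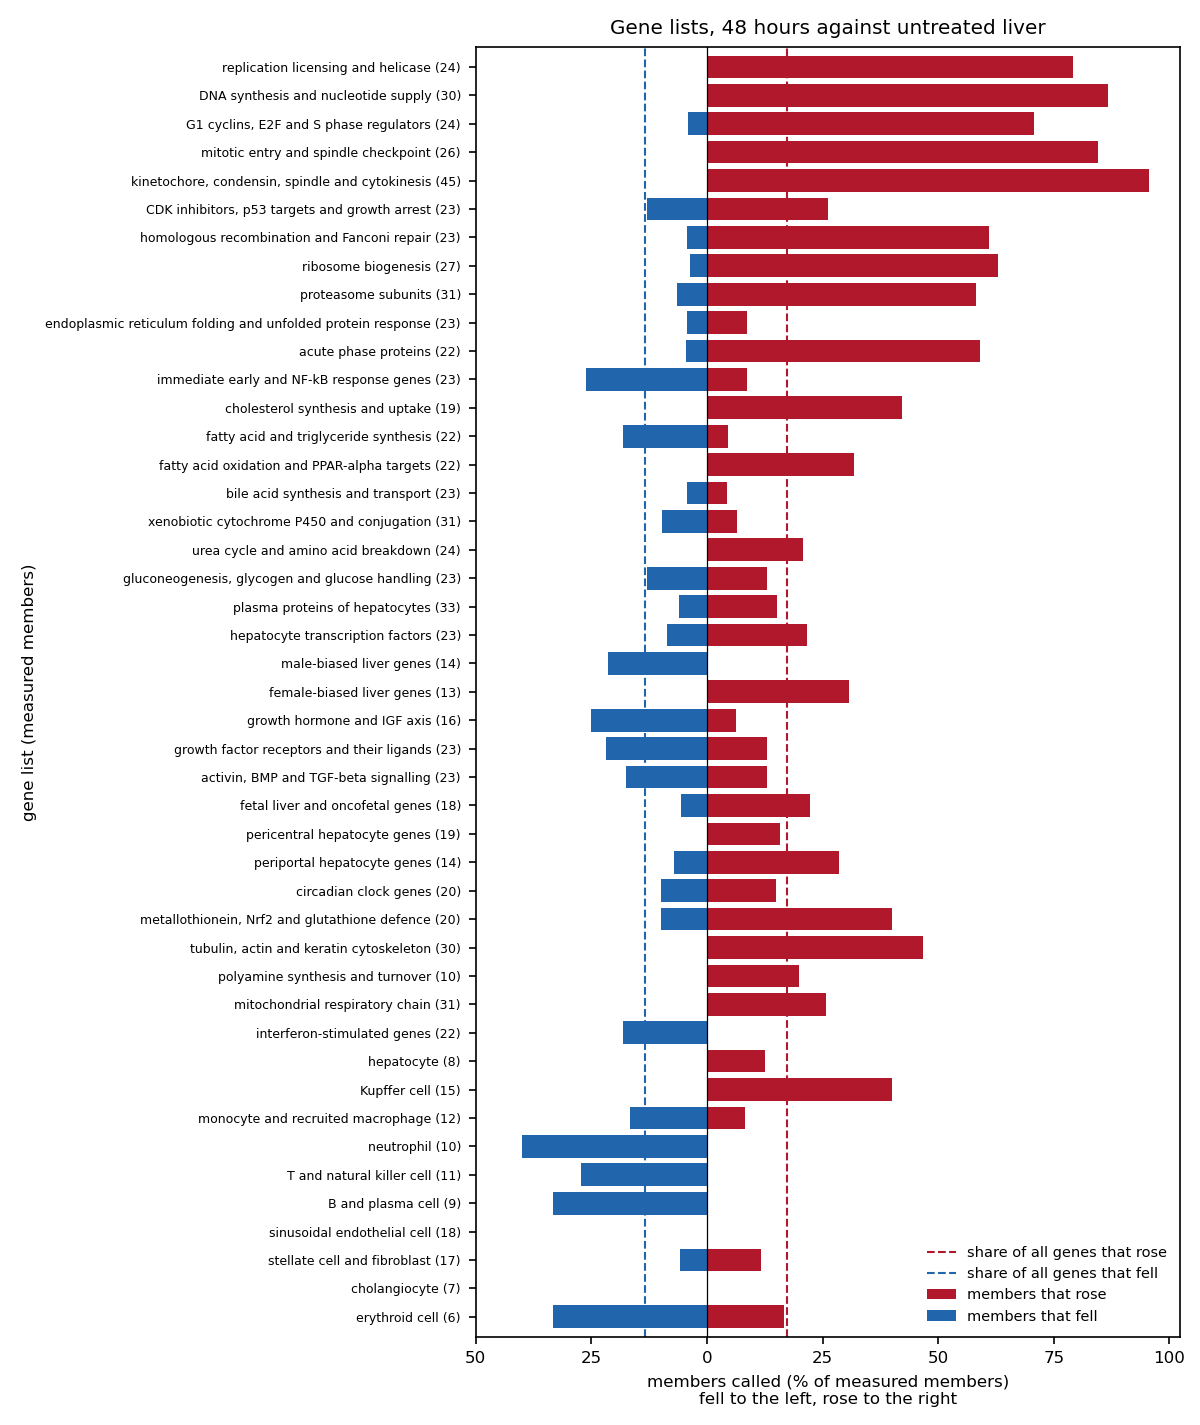
Share of the measured members of 45 gene and marker lists (y axis, with the number measured) that rose (red, to the right) or fell (blue, to the left) at an adjusted p under 0.05, in percent (x axis). Dashed lines mark the shares among all genes, 17.4% up and 13.4% down, and the kinetochore list stands highest at 95.6%.

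Most secreted proteins of the acute phase rose. Of 22 measured, 13 rose, 1 fell and 8 did not pass, with a median of 0.81. Lcn2, which withholds iron from bacteria, read 11.26, 10.94, 11.20 and 11.57 at 48 hours and 3.06, 6.39, 4.05, 3.88 and 2.88 in the controls. Its change of 7.19 ± 1.02 (adjusted p = 1.13e-06) was the largest rise of any gene whose groups did not overlap. Control replicate 2 lifted the control mean, and the other controls lay near or below the median of all probe sets, so no fold is given. The serum amyloids Saa1 and Saa2 changed by 4.80 ± 0.84 and 5.78 ± 1.06. Saa1 read 13.44, 13.36, 13.40 and 13.44 at 48 hours and 7.14, 11.97, 8.10, 8.44 and 7.40 in the controls. Control replicate 2 was high in Lcn2, Saa1 and Saa2, at 10.49 for Saa2 beside 6.20 to 6.69 in the other controls, and still below all 48-hour arrays. Orm2, an orosomucoid, changed by 4.14 ± 0.77, Serpina3n, an inhibitor of proteases, by 2.28 ± 0.52 and Apcs, the serum amyloid P component, by 2.02 ± 0.40.

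Hepcidin went the other way. Hamp, the hormone that limits iron release into blood, read 10.98, 11.08, 11.22 and 10.65 at 48 hours and 12.79, 12.68, 12.66, 12.43 and 12.62 in the controls, and fell by 1.65 ± 0.53 (adjusted p = 0.0163). Its neighbour Hamp2 fell by 2.56 ± 0.50 (-1.48 with its probe sets averaged), and the 2 genes are near copies whose probes can share signal. The call of Hamp ended with the hybridization controls (-1.07, adjusted p = 0.23) or the Gapdh difference (-1.36, adjusted p = 0.065) as a covariate.

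The metallothioneins Mt1 and Mt2, which bind zinc and copper, rose. Mt2 read 12.25, 12.28, 12.24 and 12.43 at 48 hours and 5.56, 8.25, 5.73, 5.82 and 6.86 in the controls. The change of 5.85 ± 0.50 (adjusted p = 2.26e-11) was 57.9-fold, with control replicates 2 and 5 above the other controls. Mt1 ranged over 12.95 to 13.21 and 6.55 to 10.28 and changed by 5.22 ± 0.44. Of 20 genes of metallothionein, Nrf2 and glutathione defence, 8 rose, 2 fell and 10 did not pass. Nqo1 and Srxn1, targets of Nrf2, changed by 1.54 ± 0.30 and 1.39 ± 0.30, and the zinc carriers Slc39a14 and Slc30a1 by 0.92 ± 0.26 and 0.92 ± 0.26. Gstm1, a glutathione transferase, fell by 1.04 ± 0.33, and its call ended without 48-hour replicate 1 (-0.89, adjusted p = 0.056). After quantile normalization 5 of the 20 rose, and the calls of both zinc carriers ended (adjusted p = 0.0522 for Slc39a14 and 0.0599 for Slc30a1).

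Immediate early genes, the first to answer a growth signal, fell more often than they rose in the fit over all arrays. Of 23 in the list, 2 rose (8.7%, against 17.4% of all genes), 6 fell (26.1%, against 13.4%) and 15 did not pass, with a median of -0.15. Dusp1, a phosphatase that ends MAP kinase signals, read 7.99, 8.02, 8.75 and 7.77 at 48 hours and 9.97, 9.28, 10.21, 10.13 and 8.82 in the controls and fell by 1.55 ± 0.37. Zfp36, which destabilizes inflammatory messages, fell by 1.50 ± 0.33. Jun read 6.46, 6.66, 8.43 and 6.15 and 8.59, 8.62, 8.66, 8.25 and 7.48 and fell by 1.40 ± 0.45, with replicate 3 inside the control range. The call of Jun ended without 48-hour replicate 1 (-1.24, adjusted p = 0.0516) or 4 (-1.14, adjusted p = 0.0815). Klf6 and Klf4 rose by 1.29 ± 0.42 and 0.94 ± 0.28, and the call of Klf6 ended with the hybridization covariate (0.98, adjusted p = 0.166). Rises numbered 4 when the 2 groups were fitted alone and 1 with the hybridization covariate. Falls in the list numbered 3 without 48-hour replicate 1 or with the Gapdh covariate, a share near that of all genes.

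The largest fall was in a gene of mature male liver. Hsd3b5, a steroid dehydrogenase of male hepatocytes, read 7.74, 6.36, 6.47 and 5.28 at 48 hours and 10.92, 11.22, 11.06, 11.50 and 11.13 in the controls. Replicate 1 was the highest of the 48-hour arrays, and all 4 lay below all controls. The change was -4.70 ± 1.25 (adjusted p = 0.00376), 26.1-fold lower. Mup10, a major urinary protein, changed by -2.70 ± 0.72 and Nudt7, which breaks down coenzyme A, by -1.67 ± 0.49. Of 14 male-biased genes 3 fell (21.4%, against 13.4% of all genes) and 11 did not pass, with a median of -1.11. In 8 of the 14 all 48-hour arrays lay below all controls, and in 0 above. The fit over all 52 arrays takes its spread from every group, and 9 of the 14 fell when the 2 groups were fitted alone, or without 7 arrays doubted from earlier results of these data (control replicate 1 and 6 arrays of other times). Falls numbered 6 with array weights and 5 without 48-hour replicate 1. Xist, a female RNA, lay between 2.82 and 3.68 in the 9 arrays compared here.

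A few female-biased genes were higher. Of 13, 4 rose (30.8%, against 17.4% of all genes) and 9 did not pass, and 1 rose with the hybridization covariate. Cyp17a1, a steroid hydroxylase and lyase, read 7.55, 7.92, 8.55 and 9.58 at 48 hours and 5.29, 5.83, 6.17, 5.80 and 6.62 in the controls, a change of 2.46 ± 0.55 (adjusted p = 0.000723). Acot3, a thioesterase of peroxisomes, changed by 2.02 ± 0.56, and its call ended with the hybridization covariate (1.50, adjusted p = 0.106). Sexual dimorphism in liver is set by growth hormone pulses. Of 16 genes of growth hormone and IGF signalling, 1 rose, 4 fell and 11 did not pass. The rise ended without control replicate 1 or 3 or 48-hour replicate 2 or 4, among others, and 2 fell with the hybridization covariate. Bcl6, a repressor in male liver, read 5.33, 4.30, 4.34 and 4.50 at 48 hours and 5.94, 8.83, 8.82, 6.39 and 5.70 in the controls and fell by 2.52 ± 0.69 (-1.55 with its probe sets averaged). The controls were split for Bcl6, with replicates 2 and 3 far above the other controls. Igfbp3, the carrier of circulating IGF-1, read 4.83, 4.32, 4.88 and 5.09 and 6.66, 6.01, 7.05, 6.90 and 6.83 and fell by 1.91 ± 0.36 (adjusted p = 8.98e-05). Igfbp1, an early response gene of regeneration, stood at 1.00 ± 0.77 and did not pass, its controls spread over 7.86 to 11.22.

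Further falls among the 15 largest were Serpina12, a secreted protease inhibitor (vaspin), and Serpina4-ps1, a serpin pseudogene. Serpina12 read 6.56, 5.27, 4.82 and 4.95 at 48 hours and 9.12, 9.64, 9.46, 9.76 and 9.25 in the controls and fell by 4.05 ± 0.50 (adjusted p = 1.36e-07). Serpina4-ps1 fell by 3.84 ± 0.58, with its 48-hour arrays within 5.72 to 6.03 and the controls at 8.52 to 10.91. As a pseudogene of a multigene family it may share probes with its relatives. Ugt2b38, a glucuronosyl transferase, fell by 3.44 ± 0.69, Rgs16, a brake on G protein signals, by 2.44 ± 0.54, Sucnr1, the succinate receptor, by 2.32 ± 0.61 and Arrdc3, an arrestin-like protein, by 2.33 ± 0.57. Depp1 fell by 2.56 ± 0.48, Rflna by 2.73 ± 0.41 (-1.38 with its probe sets averaged) and the RNA Hectd2os by 2.95 ± 0.64. Sult2a8, a bile acid sulfotransferase, fell by 2.21 ± 0.82, at 9.53 to 10.82 against 12.09 to 12.29, and its call ended under 8 alternatives. The 15 largest falls were picked from called genes without overlap, so the gap between the groups is no added result.

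**Figure D4:**
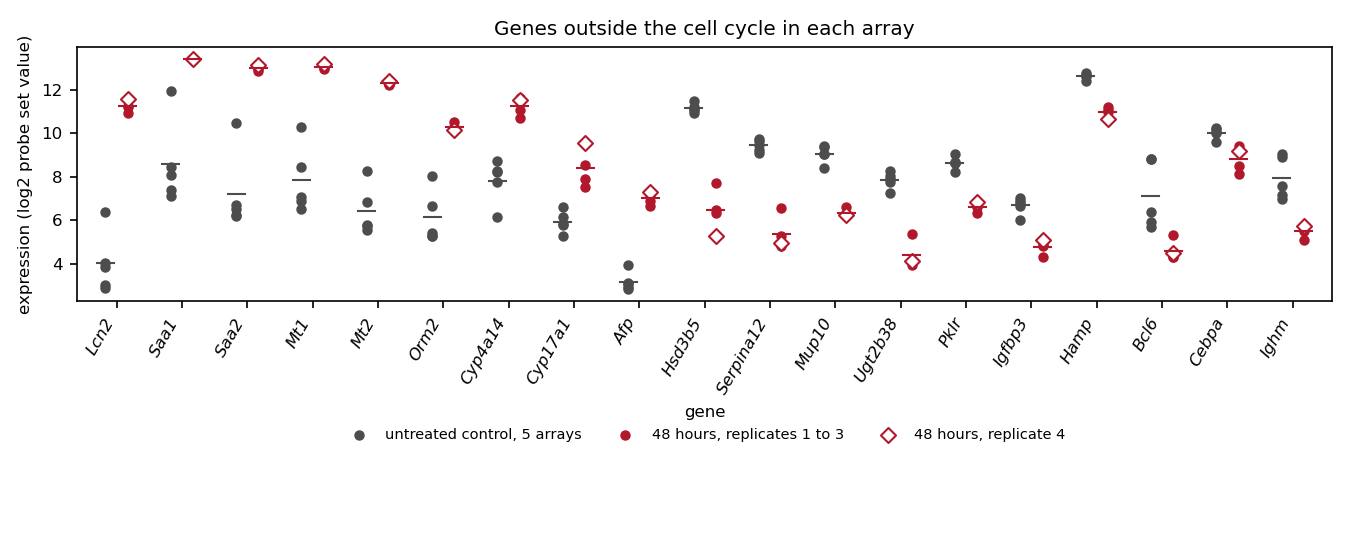
Log2 probe set values (y axis) of 19 genes outside the cell cycle (x axis) in the 5 control arrays (grey) and the 4 arrays at 48 hours (red, replicate 4 as an open diamond), with lines at the group means. The first 9 genes rose and the last 10 fell, and control replicate 2 has Saa1 at 11.97.

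Carbohydrate and fat metabolism changed gene by gene. Pklr, the pyruvate kinase that ends glycolysis in liver, read 6.60, 6.36, 6.68 and 6.85 at 48 hours and 8.69, 8.25, 8.65, 8.63 and 9.04 in the controls and fell by 2.02 ± 0.38 (adjusted p = 8.98e-05), and stood at -1.24 with its probe sets averaged. Khk, the fructokinase, fell by 1.07 ± 0.31, and Fbp1, of glucose synthesis, rose by 0.76 ± 0.16. Of 23 genes of glucose handling, 3 rose, 3 fell and 17 did not pass. Of 22 genes of fatty acid and triglyceride synthesis, 1 rose, 4 fell and 17 did not pass, with a median of -0.60. Mlxipl, the sugar-sensing factor ChREBP that drives Pklr, fell by 1.34 ± 0.35, the malic enzyme Me1 by 1.30 ± 0.30 and the desaturase Scd1 by 1.45 ± 0.50. Scd1 read 11.93, 11.81, 12.52 and 11.28 and 13.27, 13.28, 13.49, 13.22 and 13.40, and its call ended without 48-hour replicate 4 (-1.24, adjusted p = 0.0877) or with the Gapdh covariate (-1.26, adjusted p = 0.069). Falls in this list numbered 10 when the 2 groups were fitted alone, 9 with array weights and 7 without the doubted arrays or after quantile normalization. Its list mean was uneven, at -1.05, -0.67, -0.18 and -0.41 for replicates 1 to 4.

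Genes of fat breakdown and cholesterol synthesis are given next. Of 22 fatty acid oxidation genes and targets of PPAR-alpha, 7 rose and 15 did not pass. Cyp4a14, a fatty acid hydroxylase, read 11.63, 11.09, 10.72 and 11.53 at 48 hours and 6.18, 7.77, 8.20, 8.71 and 8.28 in the controls, a change of 3.41 ± 0.78 (adjusted p = 0.000895). Ppargc1a, a coactivator of mitochondrial genes, changed by 1.54 ± 0.34, Hadhb by 1.02 ± 0.19 and Acadm by 0.63 ± 0.11, both of mitochondrial oxidation. The mean of its probe sets gave 0.42 for Hadhb. Rises numbered 4 without control replicate 1, with the hybridization covariate or after quantile normalization. Falls numbered 3 when the 2 groups were fitted alone and 4 without the doubted arrays. In 3 of the 22 all 48-hour arrays lay below all controls, and in 8 above. Of 19 cholesterol genes, 8 rose and 11 did not pass. Cyp51 and Sqle, enzymes of the late steps, changed by 1.43 ± 0.23 and 0.98 ± 0.23. Cyp51 read 10.09, 10.17, 10.52 and 10.71 and 8.58, 9.01, 9.23, 9.11 and 8.76, with no overlap. Rises in the list numbered 5 without 48-hour replicate 3, 4 without replicate 4, 5 after quantile normalization and 2 with the hybridization covariate, 1 gene fell when the 2 groups were fitted alone or with array weights, and the list means of replicates 1 to 4 were -0.02, 0.39, 0.80 and 1.01. Of 31 genes of the respiratory chain, 8 rose, Sdhd (1.24 ± 0.25, or 0.79 with its probe sets averaged) among them, and 23 did not pass, while 5 rose without control replicate 1 or without 48-hour replicate 4.

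Products and enzymes of the differentiated hepatocyte were counted by list. Of 33 plasma protein genes, 5 rose, 2 fell and 26 did not pass, with a median change of 0.06, and 1 fell without 48-hour replicate 1 or 2 or any control replicate from 2 to 5. Apoa4, an apolipoprotein, read 11.78, 12.29, 11.99 and 12.10 at 48 hours and 9.51, 9.12, 9.62, 9.51 and 9.85 in the controls and rose by 2.52 ± 0.34 (adjusted p = 5.9e-07). Ahsg, fetuin A, rose by 0.67 ± 0.08, and Apoc2 by 1.18 ± 0.18. Of 31 cytochrome P450 and conjugation genes, 2 rose, 3 fell and 26 did not pass. In 11 of the 31 all 48-hour arrays lay below all controls, and in 4 above. Falls numbered 15 when the 2 groups were fitted alone, 11 without the doubted arrays, 7 with array weights and 1 without 48-hour replicate 1. Gsta2, a glutathione transferase, fell by 1.42 ± 0.48, though not without 48-hour replicate 1 (-1.17, adjusted p = 0.0807), and Sult1a1, a sulfotransferase, rose by 1.18 ± 0.24. Of 23 genes of bile acid synthesis and transport, 1 rose, 1 fell and 21 did not pass. Falls in that list numbered 8 without the doubted arrays, 5 with the 2 groups alone or array weights, 4 after quantile normalization and 0 in limma without control replicate 1 or 48-hour replicate 1, 2 or 4. Cyp7a1, the first enzyme of bile acid synthesis, read 10.81, 10.66, 10.95 and 11.91 at 48 hours and 9.44, 10.33, 9.82, 9.69 and 10.55 in the controls. It lay above all controls in every 48-hour array but did not pass (1.12 ± 1.04, adjusted p = 0.432), while with the 2 groups fitted alone it did (adjusted p = 0.00971). Of 24 genes of the urea cycle and amino acid breakdown, 5 rose, Mat1a (0.80 ± 0.20) and Nags (0.93 ± 0.25) among them, and 19 did not pass. The rises were 20.8% of the list, near the 17.4% of all genes. The call of Nags ended with the hybridization covariate (0.77, adjusted p = 0.0601). Rises numbered 2 without control replicate 1 and 3 without control replicate 5 or 48-hour replicate 3 or 4.

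Of 23 transcription factors of hepatocytes, 5 rose, 2 fell and 16 did not pass, a share called near the 30.8% of all genes. Cebpa, which restrains hepatocyte division, read 8.51, 8.15, 9.44 and 9.18 at 48 hours and 10.20, 9.59, 10.01, 10.06 and 10.24 in the controls and fell by 1.20 ± 0.37 (adjusted p = 0.0108), though not without 48-hour replicate 2 (-0.98, adjusted p = 0.0577). Prox1 and Foxa3 changed by 1.20 ± 0.30 and 1.03 ± 0.22, Prox1 by 0.75 with its probe sets averaged. Rises numbered 2 without control replicate 1 and 3 without 48-hour replicate 3 or 4 or control replicate 3, and falls 5 after quantile normalization. Among 18 fetal and oncofetal genes, 4 rose, 1 fell and 13 did not pass, and 1 of the risers, Ect2, is also a gene of cytokinesis. Rises numbered 8 with the Gapdh covariate and 2 with the hybridization covariate, and 2 fell without 48-hour replicate 1. Afp, the albumin of the fetus, read 6.66, 7.15, 6.92 and 7.33 at 48 hours and 3.07, 3.12, 2.83, 3.94 and 2.95 in the controls, a change of 3.83 ± 0.48 on its brightest set, where 3 of its 5 sets rose and the lowest stood at -0.26 and their mean at 1.40. Bmper, a modulator of BMP signals, changed by 2.45 ± 0.76, in a list of 23 activin, BMP and TGF-beta genes of which 3 rose, 4 fell and 16 did not pass, with 2 falls without 48-hour replicate 3 or 4. Of 23 growth factor receptors and ligands, 3 rose, 5 fell and 15 did not pass, with 2 falls without 48-hour replicate 2 and 1 rise without 48-hour replicate 4 or control replicate 1. The rises were 13% of this list and the falls 21.7%, against 17.4% and 13.4% of all genes. Vegfa, the growth factor of endothelium, fell by 0.97 ± 0.18, while Il6ra, a receptor of interleukin 6, rose by 1.08 ± 0.30 (0.63 with its probe sets averaged) and Met, the receptor of hepatocyte growth factor, by 0.42 ± 0.14. The call of Met ended under 5 alternatives, among them without 48-hour replicate 4 or control replicate 1 (adjusted p = 0.0801 and 0.0683) and after quantile normalization (0.12, adjusted p = 0.505). Odc1, the first enzyme of polyamine synthesis, read 9.64, 9.39, 7.96 and 8.11 against 7.32, 8.63, 8.29, 8.67 and 8.48 and did not pass on the set used (0.50 ± 0.44), whereas its other 2 sets rose.

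Lists of liver zones, the circadian clock and interferon were counted as well. Of 19 pericentral genes, 3 rose and 16 did not pass. Of 14 periportal genes, 4 rose, 1 fell and 9 did not pass, with 2 rises without control replicate 1. Of 20 circadian clock genes, 3 rose, 2 fell and 15 did not pass, with 1 rise without 48-hour replicate 3 and 1 fall without 48-hour replicate 1 or 2 or control replicate 3 or 5. Of 22 interferon-stimulated genes, 4 fell and 18 did not pass, with 1 fall without 48-hour replicate 2 and 2 without 48-hour replicate 4 or control replicate 4. The periportal rises were 28.6% of the list, against 17.4% of all genes, and the interferon falls 18.2%, against 13.4%.

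Genes that mark the other cells of the liver moved in different directions. Of 15 Kupffer cell markers, 6 rose and 9 did not pass, with a median of 0.70. Marco, a scavenger receptor of resident macrophages, read 6.46, 5.44, 6.26 and 6.12 at 48 hours and 4.22, 3.97, 3.51, 3.91 and 4.37 in the controls, a change of 2.08 ± 0.53 (adjusted p = 0.00269), but its call ended with its probe sets averaged (0.96, adjusted p = 0.063). Vsig4, a complement receptor, read 6.93, 5.10, 6.21 and 6.08 and 3.49, 4.70, 4.61, 4.88 and 4.44 and changed by 1.66 ± 0.54. In both genes 48-hour replicate 1 was highest and replicate 2 lowest, and the call of Vsig4 ended without 48-hour replicate 1 (1.37, adjusted p = 0.0677) or control replicate 1 (1.42, adjusted p = 0.0603). Control replicate 1 lay lowest in Vsig4, and the list mean of that array was 0.60 below the control mean while the others lay between 0.06 and 0.25. Only 1 marker rose without 48-hour replicate 1, without control replicate 1 or with the hybridization covariate, and 3 rose without 48-hour replicate 3. The defining markers Clec4f and Timd4 did not pass.

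Lymphocyte and neutrophil markers had falls and no rises in the fit over all arrays, but many were dim. The control mean lay under the median of all probe sets in 4 of 9 B cell, 7 of 11 T and natural killer cell and 5 of 10 neutrophil markers. That median itself averaged 3.94 at 48 hours and 4.04 in the controls, so small falls of dim markers are hard to read. Ighm, the heavy chain of IgM, read 5.51, 5.10, 5.73 and 5.76 at 48 hours and 9.05, 6.98, 8.93, 7.16 and 7.57 in the controls and fell by 2.42 ± 0.62 (adjusted p = 0.00275), and stood at -0.68 with its probe sets averaged. Cd74, of antigen presentation, fell by 1.04 ± 0.21. Of 9 B and plasma cell markers 3 fell and 6 did not pass, and the list means at 48 hours were -0.64, -0.82, -0.56 and -0.69, below all 5 controls. Of 11 T and natural killer cell markers 3 fell (27.3%), and of 10 neutrophil markers 4 fell (40%), each by under 1 log2 unit, against 13.4% of all genes. The calls of these last 2 lists ended with the hybridization covariate, and 1 T cell and 2 neutrophil markers fell without 48-hour replicate 3 or 4. The highest neutrophil marker stood at 1.47 and did not pass, and 2 neutrophil markers rose when the 2 groups were fitted alone. Of 18 sinusoidal endothelial markers none passed in limma, and 1 was higher at an unadjusted p under 0.05. Of 7 cholangiocyte markers none passed either, and 1 was lower at an unadjusted p under 0.05. Among 17 stellate cell and fibroblast markers 2 rose and 1 fell, led by Lum, a matrix proteoglycan, at 1.39 ± 0.33. Their part in the results for other genes was not tested.

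**Figure D5:**
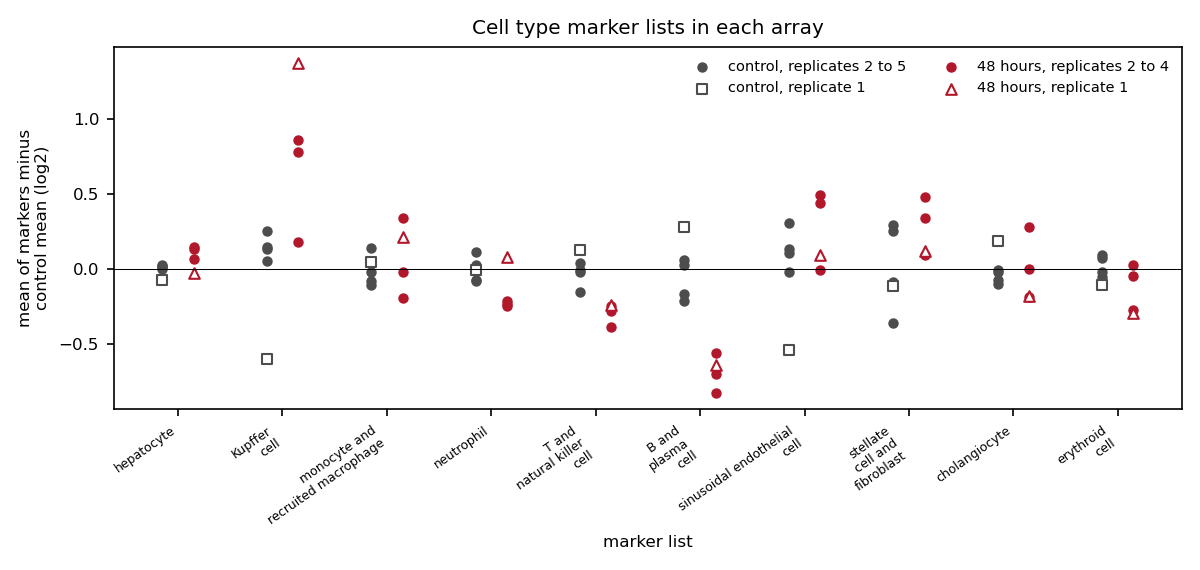
Mean of the markers of 10 cell types minus the control mean (y axis, log2) in each array, controls in grey and 48 hours in red. The 4 arrays at 48 hours lie below all controls for B and plasma cells, while control replicate 1 (open square) lies low for Kupffer and endothelial cells and 48-hour replicate 1 (open triangle) high for Kupffer cells at 1.37.

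The day before, at 24 hours, list means stood 0.84 above control for licensing and 0.61 for DNA synthesis, and 0.35 for mitotic entry and 0.43 for the kinetochore list. At 48 hours these means were 1.99, 1.82, 2.75 and 2.92. The 24-hour arrays were uneven, with Mcm6 at 9.74 and 9.25 in replicates 2 and 5 and at 5.09 to 8.54 in the others. Between 24 hours (11 arrays) and 48 hours 996 genes changed, 5.47% of all genes, with 650 rises (3.57%) and 346 falls (1.9%). This comparison shares the 48-hour arrays with the one above, so the values stand side by side and are not independent. Xist, the female RNA, ran from 3.14 to 9.49 at 24 hours (median 3.54), so the sex of some 24-hour arrays is in doubt. Hsd3b5, the male gene, lay at 2.93 to 3.63 in 24-hour replicates 1, 9, 10 and 11 and at 5.67 to 9.64 in the others. The part of sex in these changes was not tested beyond a fit without the arrays with Xist above 6. Of the kinetochore list 43 of 45 rose from 24 to 48 hours, of mitotic entry 22 of 26, of DNA synthesis 23 of 30 and of licensing 15 of 24, but of G1 control 6 of 24. Mki67 ranged from 2.95 to 7.77 at 24 hours (median 3.31) and changed by 4.76 ± 0.66. Ccnb2, the largest rise, lay between 2.49 and 5.41 and changed by 5.08 ± 0.63 (adjusted p = 6.6e-07), followed by Cdc20 (5.03 ± 0.72) and Birc5 (4.81 ± 0.62). These 3 genes were picked from called genes without overlap between 24 and 48 hours, so their separation is no added result. For Cdc20 it was narrow, with 24-hour replicate 2 at 8.01 and 48-hour replicate 4 at 8.12. Mki67, not picked that way, overlapped. Mcm6, at 5.09 to 9.74, overlapped the 48-hour group and changed by 2.35 ± 0.64 (adjusted p = 0.0199). Ccnd1 was already high at 24 hours, at 9.40 ± 0.59 (SD, n = 11), and did not pass (0.14 ± 0.52, adjusted p = 0.911).

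Genes of protein folding in the endoplasmic reticulum went down over the same day. Of 23 in that list 13 fell from 24 to 48 hours, with a median of -0.87, whereas against untreated liver 2 rose and 1 fell. Sdf2l1, a partner of the chaperone BiP, changed by -2.51 ± 0.35 from 24 hours and stood -0.18 ± 0.40 from control, which did not pass. Outside the list, 2 further genes were named as being among the 5 largest falls without overlap from 24 hours. Derl3, which moves misfolded proteins out of the reticulum, changed by -2.31 ± 0.37, and Nucb2, a calcium-binding protein, by -3.04 ± 0.36. In 24-hour replicates 9 and 10 Derl3 read 10.28 and 10.61, beside 7.41 to 8.06 in the others, and Sdf2l1 11.8 and 11.7, beside 9.39 to 10.24. Cyp7a1 rose by 2.92 ± 0.91 (adjusted p = 0.0462) from 24 hours, where the arrays ran from 3.46 to 9.90 (median 9.17) with replicates 1, 9 and 10 lowest. Lcn2 and Saa1 did not pass between the 2 times, at -1.66 ± 0.89 and -0.40 ± 0.73. The count of genes changed was 449 when the 2 groups were fitted alone and 599 without the arrays with Xist above 6. It was 552 and 560 without 48-hour replicate 2 or 3, and 1371 without 24-hour replicates 2 and 5. With the replicate number as a block 279 rose and 411 fell, so the share that rose was 40.4% and not 65.3%.

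From 48 hours to 3 days (4 arrays) few single genes changed. Only 8 passed, 0.044% of all genes, of which 4 rose and 4 fell, while 1850 had an unadjusted p under 0.05. The 3-day arrays differed widely among themselves in the cell cycle. Mki67 read 8.87, 5.12, 9.28 and 9.42 there, against 9.40, 9.91, 9.81 and 7.57 at 48 hours, with a 3-day mean of 8.17 ± 2.05 (SD, n = 4), and the difference did not pass (limma, adjusted p = 0.723). Mcm6 read 8.79, 4.80, 8.25 and 8.57 and its difference of -1.73 ± 0.78 (adjusted p = 0.436) did not pass either. The rises were Anxa1 (1.41 ± 0.30), Trim35 (1.21 ± 0.22), Sspn (1.03 ± 0.20) and Zp1 (0.62 ± 0.12). The falls were the replication genes Dscc1 (-1.70 ± 0.34) and Clspn (-0.57 ± 0.11), Vmn1r58 (-0.72 ± 0.14) and the centriole gene Cep135 (-1.01 ± 0.17), which was named after its values were seen because its groups overlapped. Dscc1, which loads the sliding clamp, had risen from control by 2.42 ± 0.33 (1.33 with its probe sets averaged). At 3 days Vmn1r58 (2.00 to 2.68), Dscc1 (1.97 to 3.44) and Zp1 (3.33 to 3.81) lay under the median of all probe sets, which averaged 3.93. Signal and background are hard to separate there. Sspn ran from 3.36 to 4.17, while Anxa1, Trim35 and Clspn lay above that median in every 3-day array. The count of genes that passed was 722 with array weights, 108 without the doubted arrays, 35 without 3-day replicate 2, 28 without 48-hour replicate 4 and 0 in limma without 48-hour replicate 1 or 3.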

How the data were processed

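The authors deposited log2 expression values per probe set, for which the submitters' processing notes name the package oligo 1.52.0 and the RMA method. RMA removes background and brings arrays to one distribution before it summarizes probes, which compresses differences at low signal. Probe sets were named through the platform annotation and RefSeq (GRCm38.p6), and each gene was read from its brightest set (by the mean of all 52 arrays). A group-means model over all 12 groups was fitted with limma 3.58.1 in R 4.3.3 to 18193 genes, with Benjamini-Hochberg adjustment and a threshold of 0.05. The fit was tested on simulated data. The number of arrays limits the precision. Named genes were the index genes, the 15 highest and 15 lowest called genes without overlap, up to 8 called members per list and 3 in the rarer direction, and the 5 highest and lowest for each neighbouring time. The genes and lists were chosen with earlier results of these data known. Alternatives changed the probe set rule, filter, scaling, variance model, covariates, arrays and thresholds.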

Additional observations from a re-analysis of the deposited data

Results flagged for a closer look

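In 322 groups of 4 or 5 arrays, 33 held an array far from the others by Dixon's ratio of the gap to the range, where chance flags about 1 in 20. 48-hour replicate 1 was high in Ugt2b38 (5.37) and Zmat3 (5.79). 48-hour replicate 1 was low in Lum (7.07). 48-hour replicate 4 was high in Met (8.79), Serpina4-ps1 (6.03) and Sqle (10.58). 48-hour replicate 4 was low in Aurkb (3.89), Ccna2 (7.41), Cdc20 (8.12), Cdca5 (6.92), Cdkn2d (5.31), D17H6S56E-5 (8.29), Dbf4 (6.38), E2f8 (6.52), Rrm2 (9.09) and Stmn1 (9.52). Control replicate 1 was low in Ahsg (12.16), Fbp1 (11.32), Gsta2 (9.89), Me1 (8.73), Odc1 (7.32), Pcna (6.98), Psmd8 (7.08) and Sult1a1 (10.62). Control replicate 2 was high in Apcs (10.69), Saa1 (11.97) and Saa2 (10.49). Control replicate 4 was high in Afp (3.94) and Prim1 (4.87). Control replicate 4 was low in Vmn1r58 (3.02). Control replicate 5 was high in Acot3 (5.26) and Foxa3 (8.60). Control replicate 5 was low in Srxn1 (6.29). The effect also differed between times, with 996 genes that changed between 24 and 48 hours by the test of that difference.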

How the results depend on the processing

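For 48 hours against control, 5609 genes passed, and 2150 did with the hybridization controls as a covariate, 3202 at an adjusted p under 0.01, 1044 at a change of at least 2-fold and 9690 with every probe set tested. Leaving out 1 array gave 4152 (without control replicate 1) to 5549. Of 872 list members 369 passed, 237 with the hybridization covariate and 312 to 359 with 1 array left out. For 48 against 24 hours, 996 passed, 449 with the groups alone, 1959 with array weights, 599 without arrays with Xist above 6, 463 at an adjusted p under 0.01, 300 at 2-fold and 552 to 1306 with 1 array left out. For 3 days against 48 hours, 8 passed, 2 with the groups alone, 1 with the filter at the 40th percentile, 13 with median centring, 722 with array weights, 15 with the hybridization covariate, 108 without the 7 doubted arrays, 1 at an adjusted p under 0.01, 5 at 2-fold and 0 to 35 with 1 array left out. The cause was not tested. Psmc2 reversed to 0.030 with the mean of its probe sets, and 122 of 142 called genes in the text kept their call under every alternative run. Most of these genes were named for large changes in the same data, so that count does not speak for other genes.

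The replicate numbers did not pair the arrays, since deviations of same-numbered arrays correlated at -0.11, -0.10, 0.07 and -0.01. With the replicate block 4992 genes passed against control, 359 list members, 690 genes against 24 hours (279 rises and 411 falls) and 5 at 3 days. Signal near background limits the many dim control values.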
